A study of Mus musculus with 2 samples.

Results

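Tubb1, Tbxas1, Rab27b and Casp12 are 4 genes known as targets of NF-E2 in megakaryocytes, the cells that release platelets. They were chosen by name, and each was given a window on mouse build mm9 within which peaks of the NF-E2 subunit p45 were looked for. The windows were chromosome 2 from 174220000 to 174330000 for Tubb1, chromosome 6 from 38750000 to 39100000 for Tbxas1, chromosome 18 from 70100000 to 70350000 for Rab27b and chromosome 9 from 5300000 to 5400000 for Casp12. The windows were taken as given and were not checked against gene positions on mm9, so a count of 0 refers to the window and not to a measured position of the gene. Of the 1651 peaks in the list, 1 fell in the 4 windows, and it lay in the window of Tubb1. The windows of Tbxas1, Rab27b and Casp12 held 0 peaks. Among stretches of the genome as long as each window, a peak was found in 6.62% at the length used for Tubb1, 18.1% for Tbxas1, 13.7% for Rab27b and 6.08% for Casp12. The peaks come from chromatin immunoprecipitation and sequencing (ChIP-seq) of 1 library made with an antibody to p45, beside 1 input library made with none. Both were prepared from wild-type C57BL6 mice: liver cells of fetuses at embryonic day 13.5 were cultured with recombinant human thrombopoietin at 50 ng/ml, and megakaryocytes were taken on day 3. The labels give no sorting step and do not say how many fetuses entered each library. There were no replicate libraries, and a peak list holds no expression values, so the labelled cell type was not checked here.

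NF-E2 is a dimer of p45, which is made in blood cells, and a small Maf protein. It binds an extended form of the AP-1 core sequence, with a GC before the core that the small Maf partner reads. Mice without p45 have megakaryocytes that mature poorly and release almost no platelets. Each of these 4 genes is known to be expressed at a lower level in megakaryocytes without p45. Tubb1 encodes the beta-tubulin of the microtubule coil of proplatelets and platelets. Tbxas1 encodes thromboxane synthase, which makes the platelet activator thromboxane. Rab27b encodes a small GTPase of granule transport and secretion, and Casp12 a caspase of the inflammatory group.

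The peak in the Tubb1 window was long and among the weakest of the list. It ran from 174270429 to 174271515 on chromosome 2 and measured 1087 bp, with a score of 53.03. The score is the authors' own value for each peak, given by the peak caller, and here it only ranks peaks within the list. Scores ran from 50.04 to 3100, with a median of 76.44. The Tubb1 peak therefore lay 2.99 above the lowest score in the list. It ranked 1537 of 1651, with 114 peaks (6.9%) below it and no other peak at the same score. On its own chromosome it was 115th of 125 peaks. By length it was 78th from the longest, and 95.3% of all peaks were shorter.

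Long peaks had about the same share among low scores as in the whole list. Of the 338 peaks that scored from 50 to under 60, 13 (3.85%) were at least as long as the Tubb1 peak, itself included, and the median length of the 338 was 750 bp. In the whole list, 78 of 1651 peaks (4.72%) measured at least 1087 bp. Of these 78, 73 (93.6%) scored above the Tubb1 peak, against 93% of all peaks. The median score of these 78 long peaks was 91.57, with quartiles of 67.65 and 143.92. The list has no column for a summit, so where in the 1087 bp the signal was highest was not analysed here.

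**Figure D1:**
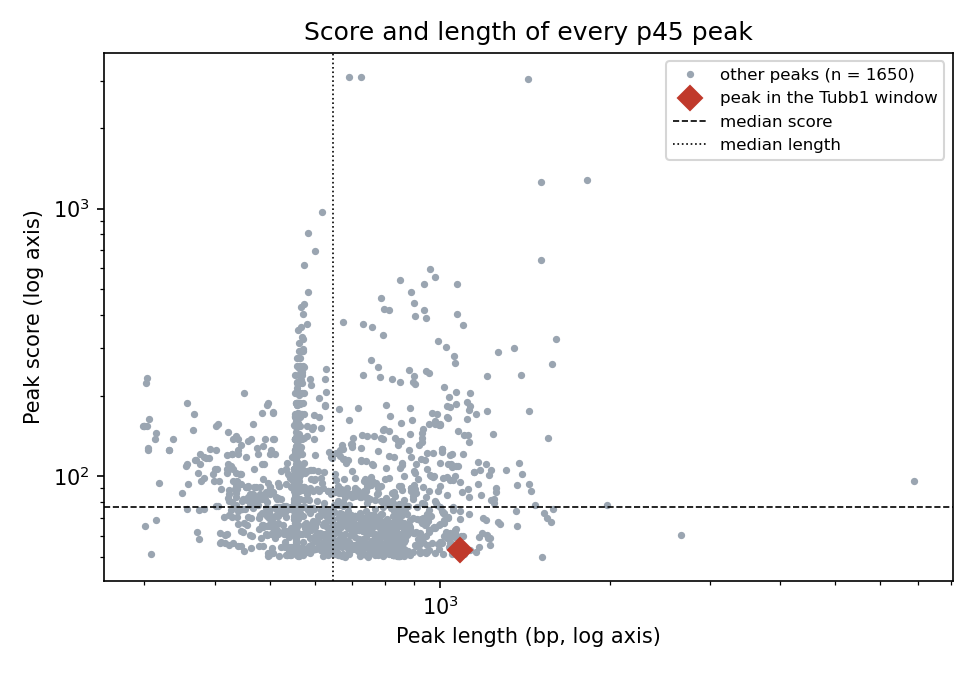
Each point is 1 of the 1651 p45 peaks, by its length in bp and its score, both on log axes; dashed and dotted lines mark the median score of 76.44 and the median length of 648 bp. The peak in the Tubb1 window (diamond, 1087 bp, score 53.03) sits to the right of the median length and near the lower edge of the scores.

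The Tubb1 peak stood alone in its window. It began 50.4 kb from the lower bound and ended 58.5 kb from the upper bound, and it covered 0.988% of the window. The next peak below it was 428 kb away, at 173841086 to 173841947, with a score of 66.91. The next peak above was 328 kb away, at 174599972 to 174600428, with a score of 90.96. Both neighbours scored higher than the Tubb1 peak. A distance of 328 kb to the nearest peak is close to the middle of the list: the median over 1645 peaks on chromosomes 1 to 19 and X was 289 kb, and 54.2% of peaks had a nearer neighbour. Within 5 Mb of the centre of the window there were 7 peaks, none of them with a score of 100 or more. In RefSeq's gene order for build GRCm38.p6, the protein-coding genes next to Tubb1 are Nelfcd and Ctsz on the lower side and Atp5e and Prelid3b on the upper side. Gene positions on mm9 were not used here, so the distance of the peak from the start of Tubb1 or of these neighbours was not measured. The peak is named for its window and was not assigned to Tubb1 over a neighbouring gene.

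The sequences just before the start sites of these genes are shown for the NF-E2 sequence they hold or lack. They are from RefSeq, build GRCm38.p6, which is not the build of the peaks, so no peak was placed on them. The promoter table matched 3 of the 4 genes: Tubb1, Tbxas1 and Casp12. Each line gives the 250 bases before the start, 5′ to 3′ on the + strand, which is the strand of each gene. Capitals mark the 9 bases that match GCTGAGTCA, the core TGAGTCA preceded by GC, on either strand with at most 1 mismatch. The Tubb1 stretch is chr2:174450345-174450594, the Tbxas1 stretch chr6:38918736-38918985 and the Casp12 stretch chr9:5345226-5345475.
Tubb1: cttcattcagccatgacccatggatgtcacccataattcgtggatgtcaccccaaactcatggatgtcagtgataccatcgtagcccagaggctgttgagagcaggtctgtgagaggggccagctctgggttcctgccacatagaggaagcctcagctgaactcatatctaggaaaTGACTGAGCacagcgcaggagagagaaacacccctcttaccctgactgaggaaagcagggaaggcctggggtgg
Tbxas1: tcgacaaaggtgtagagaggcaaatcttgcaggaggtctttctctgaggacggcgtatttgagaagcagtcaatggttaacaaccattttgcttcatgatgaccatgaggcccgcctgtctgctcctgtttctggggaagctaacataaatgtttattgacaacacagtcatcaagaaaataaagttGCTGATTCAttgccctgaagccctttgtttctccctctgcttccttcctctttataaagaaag
Casp12: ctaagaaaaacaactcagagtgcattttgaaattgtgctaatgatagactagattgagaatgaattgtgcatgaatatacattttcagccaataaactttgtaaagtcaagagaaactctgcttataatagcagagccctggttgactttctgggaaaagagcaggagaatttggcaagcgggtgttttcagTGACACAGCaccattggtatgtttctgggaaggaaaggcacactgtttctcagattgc

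The promoters of Tubb1, Tbxas1 and Casp12 held 0 exact copies of the core TGAGTCA. The search covered both strands of 300 bases, from 250 before to 50 after the start. Over all 32851 promoters of that length in the table, 5.2% held the core and 0.454% held GCTGAGTCA, which contains the core. When 1 mismatch to GCTGAGTCA was allowed, a search added after the exact counts were seen, each of the 3 promoters held 1 match, against 9.44% of all promoters with at least 1. The letter changes that follow are counted from 1 at the first base of GCTGAGTCA, on the strand where it reads in that direction.

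In Tubb1 the match reads GCTCAGTCA on the minus strand, a G4C change, and lies 74 to 66 bases before the start. The same 9 letters occur in 0.435% of all promoters. In Tbxas1 it reads GCTGATTCA on the plus strand, a G6T change, 63 to 55 bases before the start. These letters occur in 0.213% of all promoters. In Casp12 it reads GCTGTGTCA on the minus strand, an A5T change, 58 to 50 bases before the start, and these letters occur in 0.454% of all promoters. Each of the 3 changes falls inside the core, so the matches share the GC before it and differ in the letter that is lost. GC content of the 250 bases was 54% for Tubb1, 43.6% for Tbxas1 and 39.2% for Casp12. A match of letters is a description of the sequence and not a measured site.

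Other genes tied to platelet formation, to NF-E2 or to its relatives gave the same search a wider base. Of 31 such genes, 25 were matched in the promoter table. These include Bach1, Bach2, Nqo1, Gclm and Txnrd1, so the list is not one of platelet genes alone. Counted by gene, 5.95% of the 27025 genes in the table held the core in at least 1 promoter, and 10.8% a match to GCTGAGTCA with at most 1 mismatch. The core TGAGTCA was found in 1 of the 25 (4%), Mylk, which encodes a kinase of myosin light chain, where it begins 64 bases before the start. The form GCTGAGTCA was found in 0 of the 25, on either strand. A GC before the reverse complement of the core was not searched for as an exact form, so this count does not cover it. Such a site would count among the matches with 1 mismatch. Mylk held the core and a match with 1 mismatch, and whether that match is such a site was not analysed. With 1 mismatch allowed, 5 of the 25 (20%) had a match: Abcc4, Myl9, Mylk, Nfe2l2 and Maff. Of these 5 genes, 2 (Abcc4 and Maff) have more than 1 start in the table, which gives more sequence to match, and the difference from 10.8% was not tested. Nfe2l2 encodes Nrf2, a relative of p45, and Maff a small Maf partner. A gene was counted when any of its starts matched.

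No peak was listed in the window of Tbxas1, although peaks lay on both sides of it. The window spans 350 kb and was the widest of the 4. Below it, the nearest peak was at 38291799 to 38292627 on chromosome 6, 457 kb away, with 829 bp and a score of 56.15. Above it, the nearest was at 39356520 to 39357069, 257 kb away, with 550 bp and a score of 76.44, which is the median of the list. Neither flanking peak scored above that median. Within 1 Mb of the centre of the window were 4 peaks, the strongest with a score of 156.07 at rank 183. The peak-free stretch around Tbxas1 measured 1.06 Mb, or 1.71 times the median stretch between adjacent peaks. Of the 1625 stretches, 35.4% were longer. In gene order, Hipk2 is the protein-coding neighbour on the lower side of Tbxas1 and Parp12 that on the upper side.

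**Figure D2:**
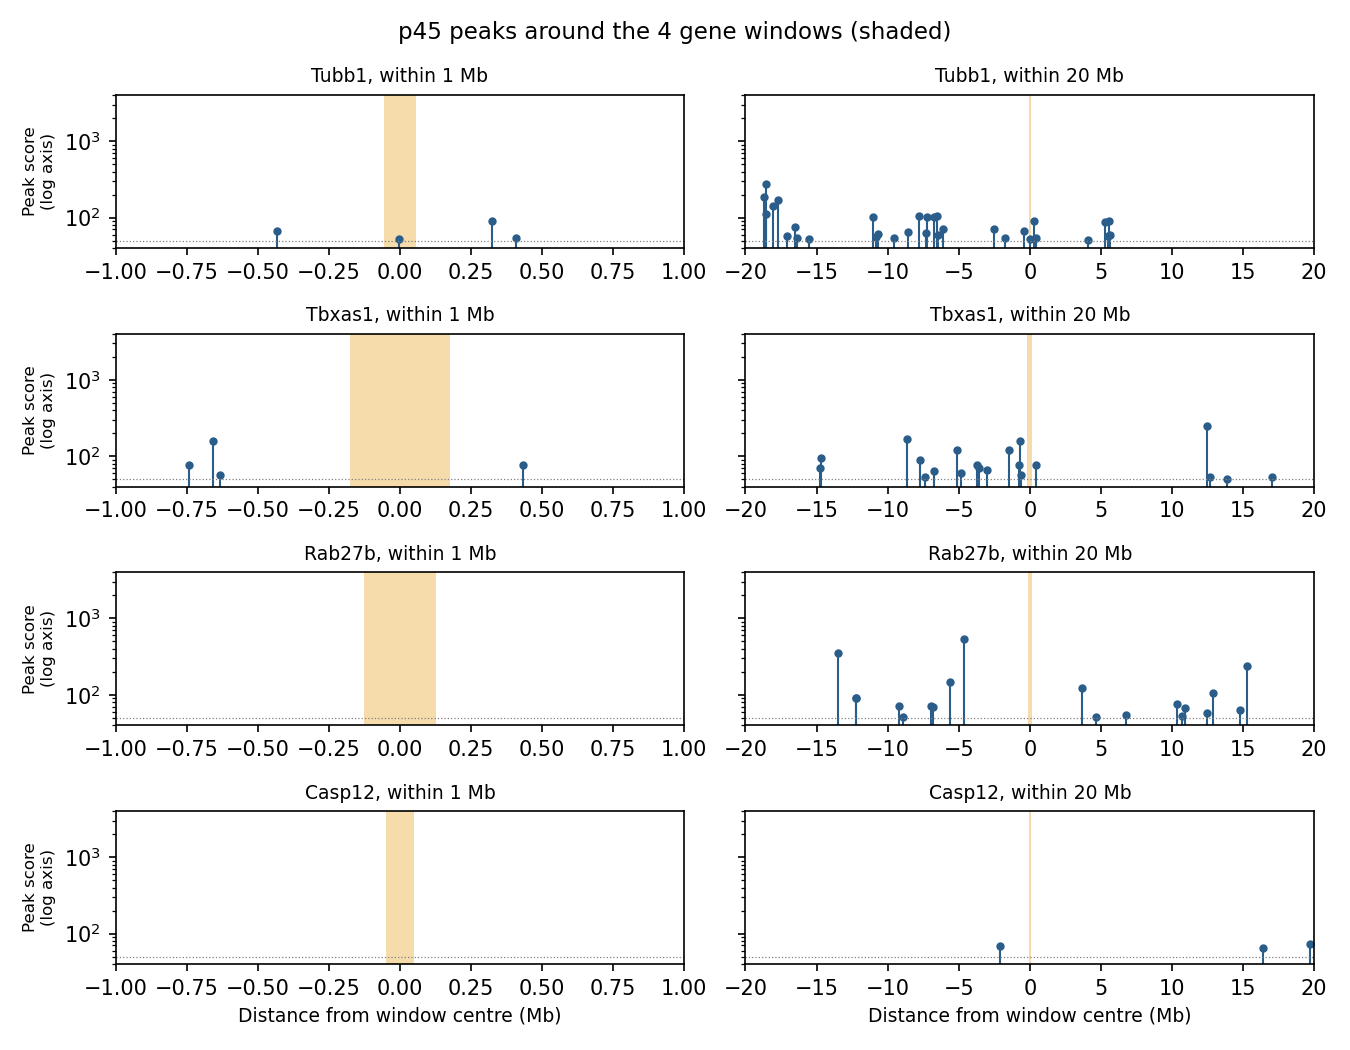
Peaks around each of the 4 windows (shaded), by distance from the window's centre in Mb and by score on a log axis, within 1 Mb on the left and 20 Mb on the right; the dotted line is a score of 50. Only the Tubb1 window holds a peak (score 53.03), and none lies within 1 Mb of the Rab27b or Casp12 centre; the 20 Mb panels of Tubb1 and Casp12 reach past a chromosome end.

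The Rab27b window, of 250 kb, held no peak either, and its surroundings were far emptier. The nearest peak below it was 4.51 Mb away, at 65586867 to 65587715 on chromosome 18. With a score of 538.48, that peak was 13th of the whole list. Above the window, the nearest peak was 3.52 Mb away, at 73865701 to 73866356, with a score of 121.95 at rank 304. Both flanking peaks were stronger than the Tubb1 peak and than both flanking peaks of Tbxas1. The stretch without a peak around Rab27b was 8.28 Mb long, 13.3 times the median stretch. It was the second longest of 40 on chromosome 18, and 2.95% of all stretches were longer. Stretches at least as long as this one held 24.5% of all sequence between peaks. By gene order, Ccdc68 and Tcf4 lie on the lower side of Rab27b and Dynap on the upper side.

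Casp12 lay in one of the longest peak-free stretches of the list. Its window of 100 kb was preceded by a peak of 314 bp at 3258831 to 3259144, 2.04 Mb below, with a score of 68.41. This was the first peak of chromosome 9. No further peak was listed until 21728379 to 21729207, 16.3 Mb above the window, with a score of 64.81. Both flanking peaks scored below the median of the list. The stretch between them measured 18.5 Mb, 29.6 times the median, and was the fifth longest of 1625 and the longest of 81 on chromosome 9. Stretches at least as long as this one held 4.22% of all sequence between peaks. Within 20 Mb of the centre of the window were 3 peaks, the highest with a score of 72.94. The chromosome begins less than that distance below Casp12, so this count was not compared with those of the other genes. Casp4 and Casp1, inflammatory caspases, precede Casp12 in gene order, and Pdgfd follows it.

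**Figure D3:**
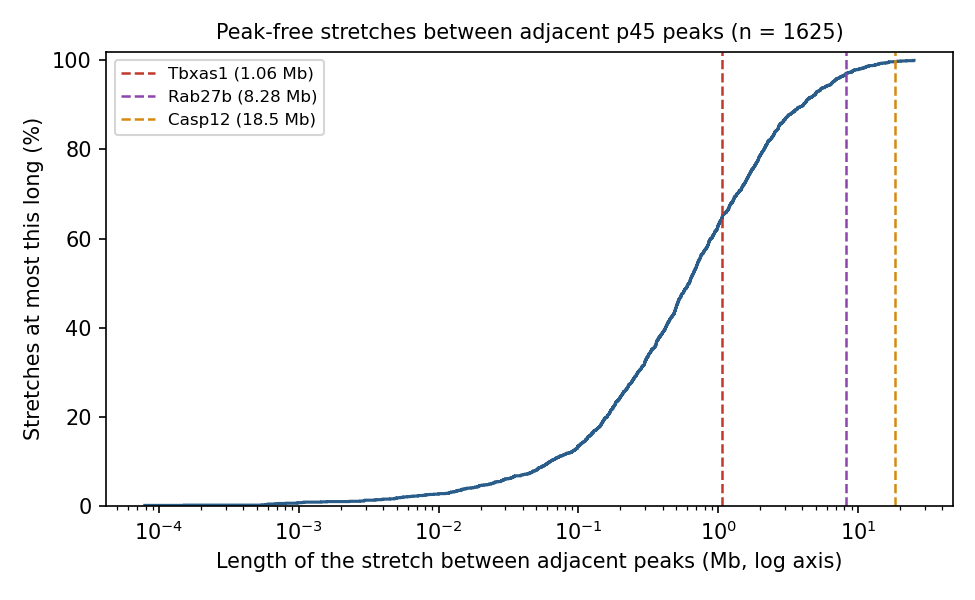
Share of the 1625 stretches between adjacent peaks that are at most as long as the value on the x axis (Mb, log axis). Dashed lines mark the stretches that hold the Tbxas1 (1.06 Mb), Rab27b (8.28 Mb) and Casp12 (18.5 Mb) windows. Of all stretches, 35.4%, 2.95% and 0.246% were longer. Those at least as long held 84.4%, 24.5% and 4.22% of all sequence between peaks.

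Peak-free windows of these lengths were the usual case along the genome. Chromosomes 1 to 19 and X were cut, from the first to the last peak of each, into tiles as long as each window. At the 110 kb of the Tubb1 window, 6.62% of 22654 tiles held a peak (exact Clopper-Pearson 95% interval 6.3 to 6.95%). At the 350 kb of the Tbxas1 window it was 18.1% of 7109 tiles, with an interval of 17.2 to 19%. At the 250 kb of Rab27b it was 13.7% of 9962 tiles, with an interval of 13 to 14.4%. At the 100 kb of Casp12 it was 6.08% of 24919 tiles, with an interval of 5.79 to 6.38%. These intervals cover counting error only, and neighbouring tiles are not independent. Tiles were cut without regard to genes, while each window was chosen for a gene, so the shares are not matched for gene content. At these shares a window without a peak does not set Tbxas1, Rab27b or Casp12 apart from such tiles. That 1 window of 4 held a peak was not tested against these shares. Long stretches also hold more of the genome than their number shows: stretches at least as long as that of Casp12 held 4.22% of all sequence between peaks, against 24.5% for Rab27b and 84.4% for Tbxas1.

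**Figure D4:**
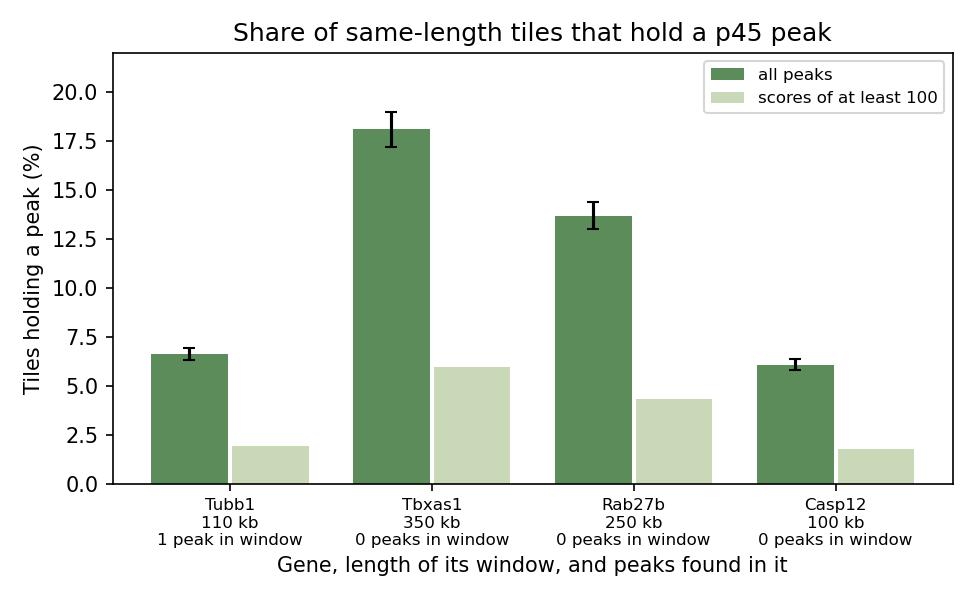
Bars give the percent of same-length tiles that hold at least 1 peak, for all peaks (dark, with 95% Clopper-Pearson intervals) and for peaks of score at least 100 (light), at the length of each gene's window. Between 6.08% and 18.1% of tiles hold a peak, and the label under each pair gives the peaks found in the gene's own window.

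At scores of at least 100, or at or above the median score, none of the 4 windows held a peak, since the Tubb1 peak was lost. An unlisted region is one that did not reach the caller's limit in this library, which is not the same as one without p45. The depth of the library is unknown, because the list gives no tag counts.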

How the data were processed

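The build is mm9 per the submitters' processing notes, and the caller was MACS per the deposited peak names. The sources used here do not say how reads were aligned or which version and settings of MACS were used. The authors deposited 1 peak list of 5 columns, with a start and end for each peak and 1 score from the caller. Starts were read as zero-based and are printed 1-based. A peak counted for a window when they shared at least 1 bp. The 4 genes, their windows and the gene list were chosen with earlier results of these data known. The rule for what is named was every peak in a window and the nearest peak on each side. No test was run, since there is 1 library per group. Shares of tiles have exact Clopper-Pearson 95% intervals. Depth is unknown. The tile and stretch counts were tested on simulated data. Promoters and gene order came from RefSeq, build GRCm38.p6, and no position was converted between builds. The protein comparison planned for these genes was not run. Values were computed in Python 3.11.15 with pandas 2.3.3, NumPy 2.4.6 and, for intervals, SciPy 1.17.1; plots were drawn with matplotlib 3.10.9.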

Additional observations from a re-analysis of the deposited data

How the results depend on the processing

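The single peak in the Tubb1 window, and so in the 4 windows together, remained when the whole peak had to lie inside the window, when windows were widened by 50 kb on each side and when peaks of 540 to under 590 bp were left out. Those settings could not change the count: the peak measured 1087 bp, began 50.4 kb from the lower bound and ended 58.5 kb from the upper. The nearest peak outside the Tubb1 window was 270 kb away. The count was 0 both with a limit at the median score and with a limit of 100, because the Tubb1 score of 53.03 is below both limits. The windows of Tbxas1, Rab27b and Casp12 held 0 peaks under each of these 5 alternatives, but no other count was possible. The score limits, the whole-peak rule and the length class can only remove peaks. The nearest peak outside these windows was 257 kb away, beyond the 50 kb added. With the limit of 100, tiles with a peak made up 1.92% at 110 kb, 5.95% at 350 kb, 4.32% at 250 kb and 1.78% at 100 kb, since fewer peaks were counted. With tiles moved by 50% of their length, all 4 shares stayed inside their intervals (6.48, 17.9, 13.6 and 5.92%). The moved tiles count the same peaks, so this is not an independent check. The number of promoters with a motif was 0 of 3 for the exact core and 3 of 3 with 1 mismatch to the form with GC, an alternative chosen after seeing the data. With no replicate library and no tag counts, the spread of a single peak's score is unknown.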
